A study of Drosophila melanogaster with 3 samples.

Results

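The MCM sites described here are those on the X chromosome of male Drosophila melanogaster S2-DRSC cells, from the telomere end of the arm up to position 20400000. They were taken from the authors' series list by chromosome and by peak centre. No score or width entered that rule, though the span was chosen with earlier results of these data known. The span of 20.4 Mb held 997 of the 5726 intervals in the series list, and a further 51 of the 1048 X intervals lay beyond the limit. The last site inside was MCM_5671 (20395914 to 20396279, 366 bp, score 3.72), and the next outside was MCM_5672 (20527159 to 20527279, 121 bp, score 3.70). Positions are those of FlyBase release 5.1.

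S2-DRSC is a male cell line derived from late-stage embryos, grown here as asynchronous cultures. Cross-linked chromatin was immunoprecipitated with a pan MCM2-7 antibody, a mouse monoclonal made against the purified complex of yeast and directed at its Walker B motif. The 3 samples were 2 MCM immunoprecipitations, called replicates 1 and 2 and titled as separate extractions, and 1 input DNA sample, of which no peak list was used. No label ties the extractions to separate cultures, so the difference between replicates may be only technical.

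The MCM2-7 complex is the ring-shaped helicase that unwinds DNA at replication forks. It is loaded onto chromatin before S phase, at many more places than will fire as origins, so its binding marks potential origins. The X of male flies is bound by the MSL dosage compensation complex, carries acetylated histone H4 along its active genes, and is present in fewer copies per cell than the autosomes.

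Each of the 997 intervals spanned exactly the joined extent of overlapping peaks from both replicates, so they are called shared sites below. In 948 of them (95.1%) 1 peak of each replicate was joined, and in all 948 the site's score equalled the average of its 2 peaks (tolerance 1e-04). The other 49 joined several peaks, with more than 1 from replicate 2 in 39 sites and more than 1 from replicate 1 in 11 sites, 1 site having both. The replicate lists themselves held 1709 peaks (replicate 1) and 1584 peaks (replicate 2) in the same span. The arms 2L, 3L and 3R were set beside X without the 2 Mb nearest each centromere, and held 960, 1053 and 1283 shared sites.

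Shared MCM sites were about as dense on X as on the autosome arms, while each replicate list was denser on X. The shared density was 48.9 sites per Mb on X, against 45.7 on 2L, 46.7 on 3L and 49.5 on 3R. Replicate 1 had 83.8 peaks per Mb on X, above 76.0 on 2L, 77.6 on 3L and 79.6 on 3R. Replicate 2 had 77.6 on X, further above its 58.1, 66.4 and 67.7 on the same arms. The ratio of X to the 3 arms pooled was 1.03 for shared sites, 1.08 for replicate 1 and 1.21 for replicate 2. It was above 1 in 2 of 2 replicates, with an exact two-sided sign-flip permutation p of 0.5, the smallest that 2 replicates can give.

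The excess on X lay mostly in narrow peaks. Replicate 2 had 44.1 peaks under 100 bp per Mb of X, against 27.5 on 2L, 35.1 on 3L and 33.4 on 3R, a ratio of 1.37 to the 3 arms together. Its peaks of 100 bp or more were nearly even, with 33.6 per Mb on X and 30.6, 31.4 and 34.3 on the arms (ratio 1.04). Among these, peaks of 200 bp or more still stood higher on X, with 15.5 per Mb against 13.5, 14.1 and 14.4. Replicate 1 showed the same split on a smaller scale, with 33.5 narrow peaks per Mb on X against 26.9, 27.8 and 28.1 (ratio 1.21), and 50.3 wider peaks against 49.1, 49.8 and 51.5 (ratio 1.00). In replicate 2 the narrow excess was in peaks that replicate 1 did not call. They came to 24.3 per Mb on X against 12.9 on the 3 arms pooled (ratio 1.89). The matched narrow peaks came to 19.8 and 19.3 (ratio 1.02). In replicate 1 both kinds were in excess, with ratios of 1.205 for unmatched and 1.229 for matched narrow peaks. The narrow peaks were spread along X, from 38.4 to 48.2 per Mb among 4 equal parts of the span in replicate 2 and from 30.2 to 37.1 in replicate 1. The limit of 100 bp was chosen after the widths had been seen.

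**Figure D1:**
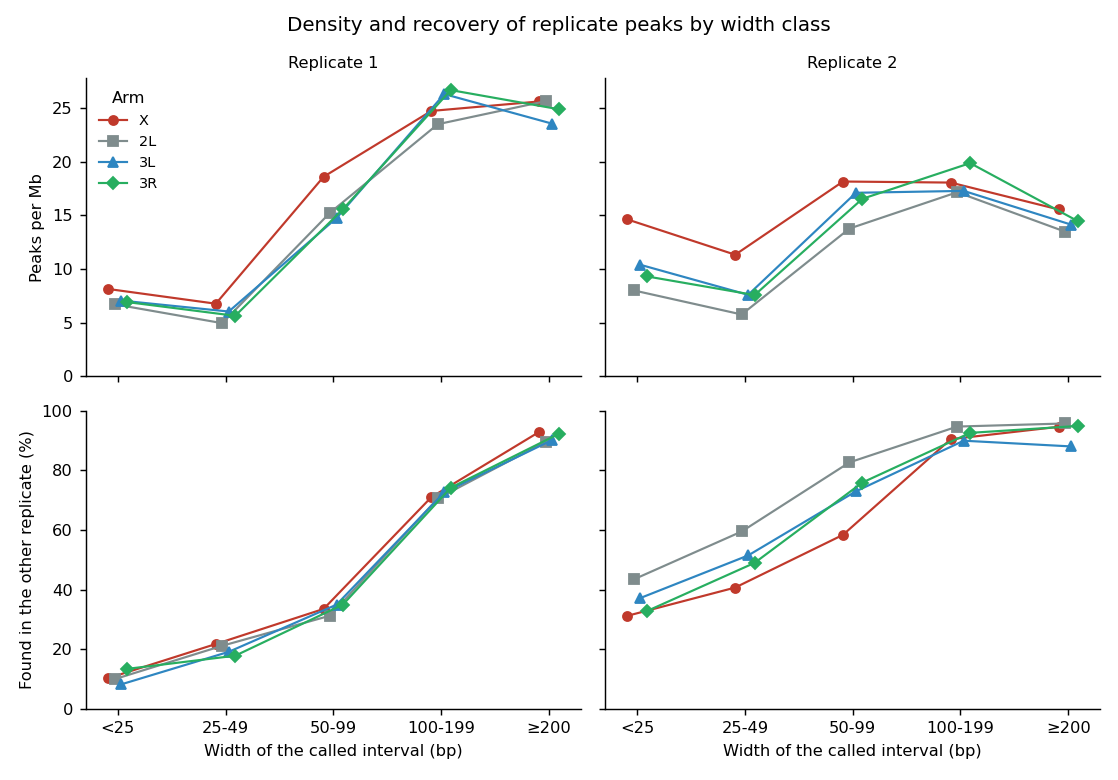
Peaks per Mb (top) and the share of peaks found in the other replicate in % (bottom) by width of the called interval in bp, for replicate 1 (left) and replicate 2 (right). Each point is 1 arm in 1 replicate list, with X in red. In density X stands above the other arms in the classes under 100 bp, and in replicate 2 also at 200 bp or more. In replicate 2 its share found is lowest in every class under 100 bp, with 58.4% at 50 to 99 bp against 82.7% on 2L.

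Recovery between the replicates was uneven on X. Of the replicate 1 peaks on X, 1017 of 1709 (59.5%, exact 95% interval 57.1 to 61.8) shared 1 bp or more with a replicate 2 peak, beside 59.8% of replicate 1 peaks over all chromosomes. Of the replicate 2 peaks on X, 1036 of 1584 (65.4%, 63.0 to 67.7) shared sequence with a replicate 1 peak, beside 70.3% over all chromosomes. The first share was close to its background, and the second was below it and below the 81.6%, 72.5% and 75.9% on 2L, 3L and 3R. These intervals cover counting error only, and neighbouring peaks are not independent.

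That share moved with the width mix. With the X peaks of each width class weighted to the width mix of the other arms, the replicate 2 share on X would be 69.5%, between its own 65.4% and the 76.3% of the 3 arms. Among narrow replicate 2 peaks, 44.8% on X were found in replicate 1, against 66.4%, 57.7% and 57.8% on 2L, 3L and 3R. Among those of 100 bp or more the share was 92.4% on X, within the 89.1% to 95.2% of the other arms. Narrow replicate 1 peaks on X were found in replicate 2 in 25.5% of cases, within the 24.1% to 26.2% of the other arms.

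The 548 replicate 2 peaks on X without a match were short and scored lower at the median, and they were not piled into a few places. Their median width was 36 bp and their median score 3.13, against 123 bp and 3.71 for the matched ones. High scores were among them too. Of the 186 replicate 2 peaks on X scoring 6 or more, 60.2% were matched. On 2L, 3L and 3R these shares were 84.2%, 79.5% and 80.1%. The scale of the scores differed between arms, as given below, so a score of 6 is not the same level on each. The 548 unmatched peaks came to 26.9 per Mb, against 10.7 on 2L, 18.2 on 3L and 16.3 on 3R. The most in any window of 200 kb was 17 on X, at 8.6 to 8.8 Mb. The highest counts were 15 on 2L, 41 on 3L and 39 on 3R. The number of unmatched replicate 2 peaks per X window rose with that of shared sites (rho = 0.691). Of the 548, 31.6% lay within 500 bp of a replicate 1 peak and 57 (10.4%) lay more than 10 kb from any.

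Scores fell on discrete steps, whose size differed between X and the other arms. The score is a number the authors gave each peak, and its unit is not named. On each arm, many scores fell on whole multiples of 1 arm-specific number, here called the step, or of that step divided by a whole number up to 5. The step was 0.415 on X in replicate 1, against 0.467 on 2L, 0.437 on 3L and 0.463 on 3R. In replicate 2 it was 0.514 on X, against 0.561, 0.585 and 0.551. Of the X scores, 28.2% in replicate 1 and 24.1% in replicate 2 lay on the X step in this sense (relative tolerance 5e-06). At most 0.0585% and 0.0631% of them lay on the step of another arm, so each arm had a step of its own. The step is given in the range 0.4 to 0.8, since multiples of it would describe the same scores, and it was looked for after the scores had been seen.

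Scores on X were also repeated more often than those on the other arms. In replicate 1, 994 of 1709 X peaks (58.2%) had exactly the same score as another X peak, against 37.2% on 2L, 41.7% on 3L and 40.2% on 3R. In replicate 2 it was 836 of 1584 (52.8%), against 26.7%, 35.5% and 33.5%. The commonest score was 3.73 on X in replicate 1, held by 30 peaks, and 3.08 in replicate 2, held by 21 peaks. Narrow peaks repeated most, with 77.7% of the X peaks under 100 bp in replicate 1 and 67.4% in replicate 2. Peaks of 100 bp or more repeated in 45.1% and 33.6% of cases on X, still above the 28.2% to 32.6% and 19.6% to 26.0% of the other arms. Counts of control and immunoprecipitated reads were not analysed here, so their part in these steps, in the extra narrow peaks and in their lower recovery was not tested, and neither was that of the copy number of X.

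Read as deposited, shared sites on X scored slightly lower than those on the other arms. The median was 3.72 on X (quartiles 2.99 and 4.76), against 3.90 on 2L, 3.76 on 3L and 3.79 on 3R. In the replicates the X median over that of the 3 arms together was 0.995 and 0.978. Expressed in each arm's own step it became 1.09 and 1.07, so the direction of the X difference depended on the arm's scaling, and levels of score are compared below within X.

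Both replicates ranked the X sites alike. Over the 948 sites of 1 peak from each, Spearman's rho between replicate scores was 0.762, against 0.782 on 2L, 0.805 on 3L and 0.799 on 3R, given as a description since sites share libraries and control. The log2 ratio of the replicate 2 to the replicate 1 score had a median of 0.01 (quartiles -0.23 and 0.26) as deposited. In X steps of each replicate the median was -0.30, with 77.7% of the sites within 1.5 times and 27 more than 2 times apart. A step is known only up to a simple factor, so which replicate scored higher was not settled, while the ranks do not depend on it. As deposited, the scores were within 1.5 times of each other in 88.7% of the sites and more than 2 times apart in 6. Replicate 1 had the wider peak in 75.4% of these sites, with median widths of 186.5 and 121 bp. Among sites whose peaks were at least 50 bp wide in both replicates, the widest score ratios were at MCM_5121 (2.54 in replicate 1 and 5.67 in replicate 2) and MCM_5106 (4.22 and 2.10).

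**Figure D2:**
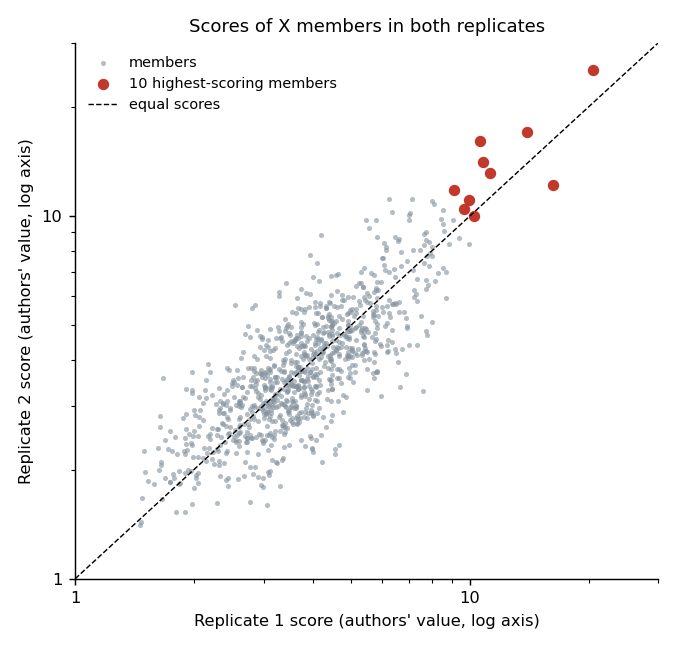
Score of each X site in replicate 1 (horizontal) and replicate 2 (vertical), both the authors' values on log axes, for the 948 sites with 1 peak from each replicate. The dashed line marks equal scores and the red points are the 10 highest sites. On these scales 8 of the 10 lie above the line, and in steps 3 of the 10 were higher in replicate 2.

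The sites with the highest scores were short, and several rested on very short calls in 1 replicate. MCM_5382 (14975223 to 14975288, 66 bp) was the highest, with 20.5 in replicate 1 and 25.2 in replicate 2. It was also the only X interval whose replicate 2 score above 20 was matched in replicate 1. MCM_5511 (17349987 to 17350091, 105 bp) scored 13.9 and 17.0 from peaks of nearly the same extent, 105 and 102 bp wide. MCM_5359 (13890011 to 13890164) scored 16.2 and 12.2 and stood alone, with 102 kb free of shared sites before it and 215 kb after it. MCM_5406 at 15468551 (10.6 and 16.1) and MCM_5163 at 10219921 (10.8 and 14.0) rested on replicate 2 peaks of 1 and 6 bp, and MCM_5135 at 9490537 (9.65 and 10.4) on a replicate 1 peak of 3 bp. The other 4 of the 10 highest, MCM_5520, MCM_4870, MCM_4677 and MCM_5145, scored from 10.1 to 12.2. In all, 31 X sites exceeded a score of 8.

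Shared sites were unevenly spread along X, with some dense windows and a few empty ones among windows of ordinary count. In 102 windows of 200 kb the mean was 9.77 sites, the median 8 and the highest 25, and 6 windows were empty. The variance of the counts was 4.73 times the mean, against 4.13 on 2L, 3.64 on 3L and 3.10 on 3R. In replicate 1 it was 5.89 on X, against 5.22, 4.57 and 4.25 on 2L, 3L and 3R. In replicate 2 it was 6.68 on X, above 5.80 on 2L but below 10.3 on 3L and 7.29 on 3R. Windows of at least 2 times the arm's mean numbered 11 on X (10.8% of windows), against 8 (7.62%), 6 (5.36%) and 6 (4.65%). The single densest windows were nevertheless on the other arms, with 40, 34 and 36 sites on 2L, 3L and 3R. These windows have fixed edges, and in a sliding window of 200 kb the highest counts were 36 on X and 40, 39 and 42 on the others.

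**Figure D3:**
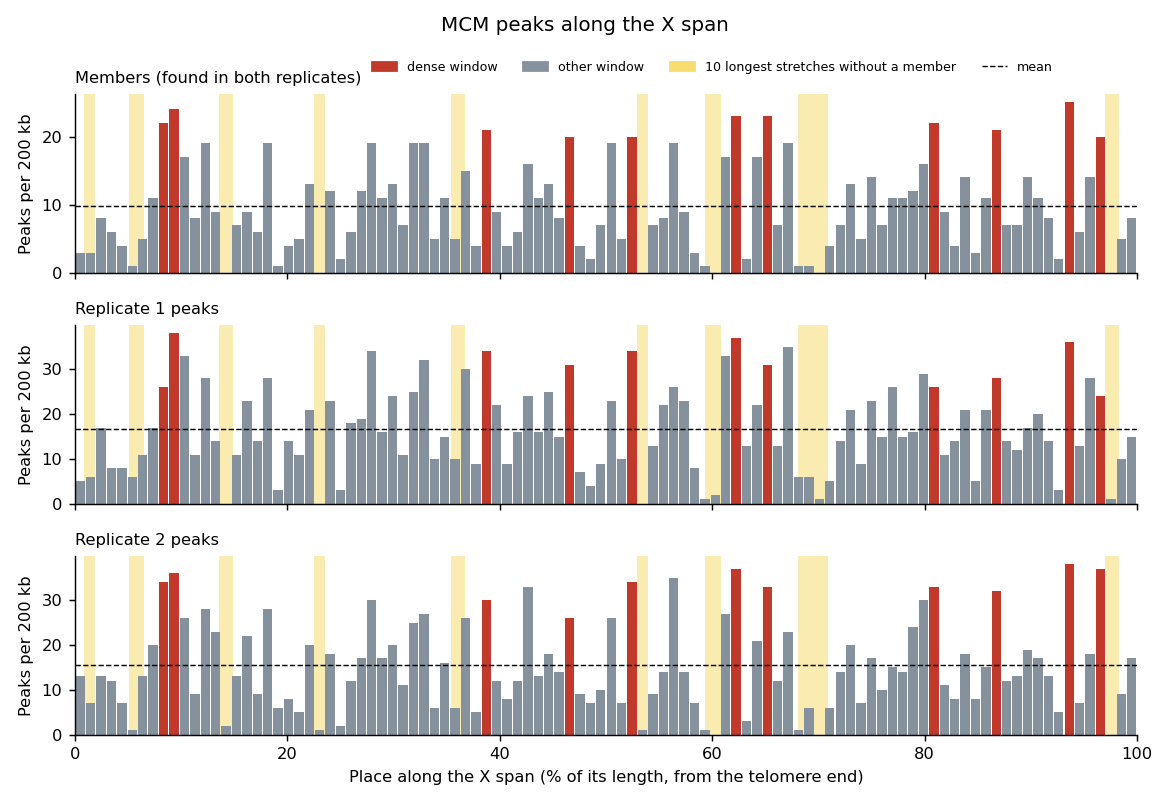
Peaks per 200 kb along the X span, with place given in % of the span from the telomere end, for shared sites (top), replicate 1 (middle) and replicate 2 (bottom). Red bars are the 11 windows with at least 2 times the mean of shared sites, shading marks the 10 longest stretches without a shared site, and dashed lines mark each list's mean. The peaks of both replicates rise and fall together with the shared sites, which is partly built in because each shared site joins peaks of both.

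The 11 dense windows formed 10 zones, with 1 zone in the first 7.8 Mb and none from 13.4 to 16.4 Mb. The one zone of 2 touching windows, 1.6 to 2.0 Mb, held 46 shared sites, with 64 replicate 1 and 70 replicate 2 peaks. The densest single window was 19.0 to 19.2 Mb with 25 sites (36 and 38 peaks). It was followed among the zones by 12.6 to 12.8 Mb (23 sites, 37 and 37 peaks) and 13.2 to 13.4 Mb (23 sites, 31 and 33 peaks). The other zones, at 7.8 to 8.0, 9.4 to 9.6, 10.6 to 10.8, 16.4 to 16.6, 17.6 to 17.8 and 19.6 to 19.8 Mb, held 20 to 22 sites each. Of the 11 windows, 9 were also at least 2 times the mean in replicate 2 and 5 in replicate 1, where 11 and 7 X windows reached that mark. Counts of the replicates were ranked alike over the 102 windows (rho = 0.916), while neighbouring windows were not (rho = 0.0241 between a window and the next, shared sites), so dense zones were mostly 1 window wide.

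Sites in dense zones scored lower at the median, though 2 of the 10 highest, MCM_5145 and MCM_5135, lay in the zone at 9.4 to 9.6 Mb. The 241 sites in dense windows, 24.2% of all in 10.8% of the span, had a median score of 3.29, against 3.86 for the 756 elsewhere. The replicate medians were 3.15 and 3.15 in dense windows and 3.62 and 3.69 elsewhere. Sites in dense windows were wider, with a median of 251 bp against 205.5 bp, and 10.4% of them reached 600 bp against 6.48%. Replicate 1 peaks in dense windows were found in replicate 2 in 73.0% of cases, against 56.1% elsewhere, and replicate 2 peaks in replicate 1 in 69.7% against 64.1%. Dense windows were chosen by their number of shared sites, which itself counts matches, so these last shares are a description.

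Sites with near neighbours scored lower than lone ones, over a graded series of distances. The median score was 3.45 for the 345 sites with a neighbour under 1 kb away, 3.77 for the 461 at 1 to 10 kb, 4.12 for the 171 at 10 to 50 kb and 4.40 for the 20 at 50 kb or more. In sites of 1 peak per replicate the same order held in replicate 1 (3.42, 3.79, 4.05 and 4.44) and in replicate 2 (3.50, 3.78, 4.05 and 4.43). Quartiles overlapped between all classes, and the order was the same on 2L, 3L and 3R. Sites with a neighbour under 1 kb away were also the widest, with a median of 259 bp against 204, 178 and 181.5 bp, and the parts of width and distance were not separated.

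**Figure D4:**
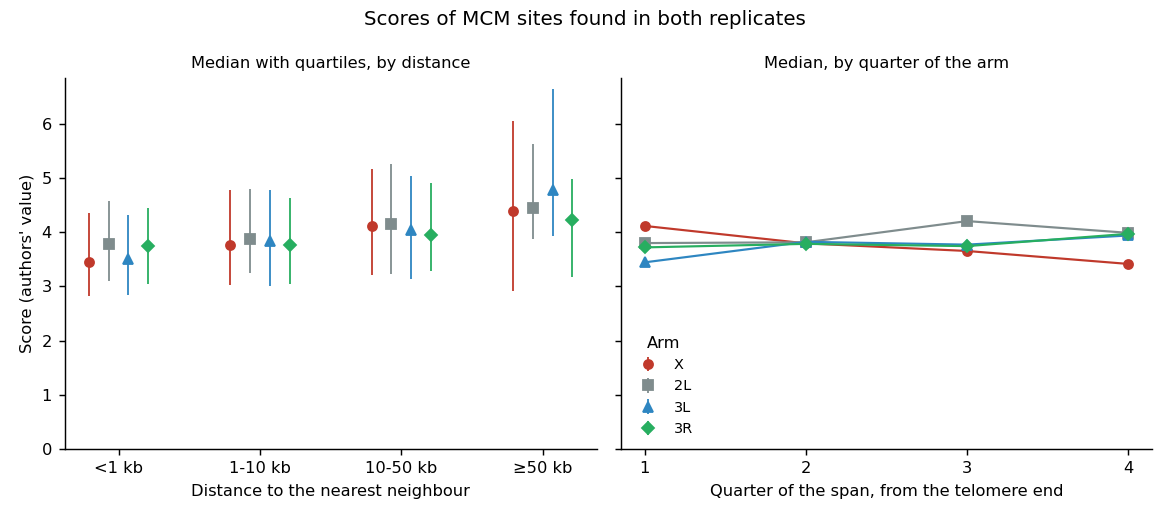
Median score of shared sites by distance to the nearest neighbour, with bars for the quartiles (left), and median score in each of 4 equal parts of the span from the telomere end (right), for X and the 3 other arms. On X the medians run from 3.45 to 4.40 with distance and from 4.12 to 3.42 along the arm.

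Over 4 equal parts of the span, the median shared score on X was highest nearest the telomere and lowest nearest the centromere. It was 4.12, 3.80, 3.66 and 3.42. On the other arms the value nearest the centromere was above that nearest the telomere, at 3.99 against 3.80 on 2L, 3.94 against 3.45 on 3L and 3.97 against 3.72 on 3R. Replicate 1 peaks on X ran 3.69, 3.53, 3.53 and 3.39, and replicate 2 peaks 3.66, 3.74, 3.58 and 3.22. Outside the dense windows the shared medians were 4.26, 3.77, 3.72 and 3.73, so that the first part stood above 3 level ones. Shared density ran 42.4, 52.7, 46.3 and 54.1 sites per Mb in the same order. Shorter pieces of X did not follow the order of the score medians. They were 3.31 at 1 to 2 Mb, 4.52 at 15 to 16 Mb and 4.09 at 20 to 20.4 Mb.

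Neighbouring shared sites on X lay closer together than on the other arms at the median, but not at every distance. The median distance was 6192.5 bp (quartiles 1667 and 20584 bp), against 7598 bp on 2L, 7880 bp on 3L and 6702.5 bp on 3R. It was 3390.5 bp in replicate 1 and 3208 bp in replicate 2 on X. Of the X sites, 806 (80.8%) had another within 10 kb, against 79.8%, 76.3% and 80.7% on 2L, 3L and 3R. The shortest distance between neighbouring peaks of 1 list on X was 201 bp in replicate 1 and 200 bp in replicate 2, and it was 200 to 202 bp on the other arms. Peaks closer than that may have been joined by the caller, whose settings were not part of the sources used.

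**Figure D5:**
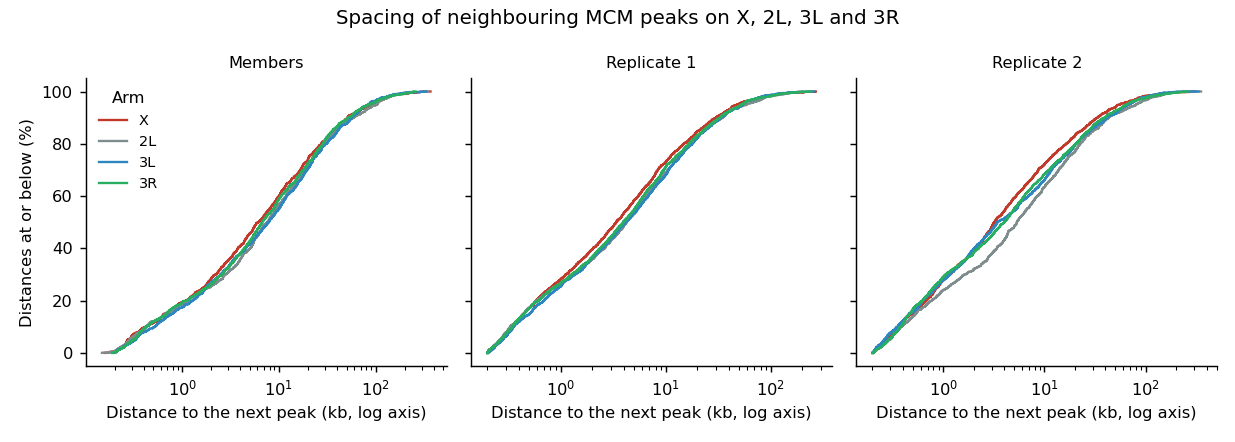
Share of distances between neighbouring peaks at or below each distance in kb (log axis), for shared sites (left), replicate 1 (middle) and replicate 2 (right) on X, 2L, 3L and 3R. The X curve in red runs highest over most of the middle range, and all curves begin at about 200 bp. In replicate 2 the median is 3208 bp on X, against 5351 bp on 2L, 3423 bp on 3L and 4015 bp on 3R. Its lower quartile there, 874 bp, is above the 853.5 bp on 3L and 801 bp on 3R.

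Sites no more than 10 kb apart formed 209 chains on X, of which the 3 longest are given here. The longest on X ran from MCM_5302 to MCM_5322, 21 sites in 54.2 kb at 13178301 to 13232499, where replicate 1 had 24 and replicate 2 had 29 peaks. The next ran from MCM_5268 to MCM_5287, 20 sites in 49.7 kb at 12610006 to 12659677. The chain from MCM_5594 to MCM_5612 held 19 sites in 46.9 kb at 19040712 to 19087624. Their median scores were 3.11, 2.79 and 2.61, all below the X median. Chains of 10 or more held 10.9% of X sites in 7 chains, close to 10.4% on 3L and 10.7% on 3R, while 2L had 1 such chain with 2.40% of its sites. On X 191 sites belonged to no chain.

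Long stretches without a shared site were present on X as on the other arms. On X 43 were longer than 100 kb, against 51 on 2L, 38 on 3L and 50 on 3R. The 43 took up 33.8% of the span, against 35.6%, 26.3% and 30.1%. The longest on each arm was 369 kb on X and 354, 332 and 259 kb on the others. The longest on X, 14105535 to 14474490, held 5 replicate 1 and 3 replicate 2 peaks. It began just after MCM_5360, a site of score 3.27, on whose other side lay a stretch of 215 kb (13890165 to 14105360) with 2 and 3 peaks. The next were 12098026 to 12405014 (307 kb, 2 and 0 peaks), 1028934 to 1318016 (289 kb, 8 and 0) and 7218997 to 7498437 (279 kb, 3 and 0). The stretch at 2763727 to 3028618 (265 kb) held none in replicate 1 and 3 in replicate 2.

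The remaining 4 of the 10 longest were at 19793647 to 20053090 (259 kb), 4582407 to 4802995 (221 kb), 10787393 to 11002459 (215 kb) and 174463 to 387205 (213 kb). Together the 10 covered 2632.4 kb, 12.9% of the span, against 11.05%, 10.7% and 9.13% for the 10 longest on 2L, 3L and 3R. They were poor in unmatched peaks as well. Replicate 1 had 29 there, or 11.02 per Mb against 33.9 over the whole span, and replicate 2 had 18, or 6.84 against 26.9. Dense and empty windows touched at 2 places, with 10.6 to 10.8 Mb beside the empty 10.8 to 11 Mb and 19.6 to 19.8 Mb beside the empty 19.8 to 20 Mb. How uniquely reads can be placed in these stretches, and which genes lie in them, were not analysed here.

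The widths of shared sites on X were like those of the other arms. The widest site was 12389 bp on X, against 3476 bp on 2L, 11100 bp on 3L and 2491 bp on 3R. The median width was 213 bp on X (quartiles 147 and 343 bp), against 209.5, 197 and 205 bp. On X 74 sites (7.42%) reached 600 bp, against 5.31%, 7.31% and 7.09%. Sites of 600 bp or more had a median score of 3.20, against 3.68 to 3.86 in the narrower classes. The 5 widest X sites all lay between 12561317 and 12646925, a region whose limits were set after their places were known.

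That region of 85.6 kb held 20 sites, 13 of them at least 600 bp wide, which covered 47.7% of it. MCM_5275 (12622955 to 12635343) was the widest at 12389 bp, and it was 1 peak in replicate 2 and 6 peaks of at most 2845 bp in replicate 1. MCM_5263 (5653 bp), MCM_5262 (4105 bp), MCM_5271 (2998 bp) and MCM_5281 (2650 bp) followed. Replicate 1 called 38 peaks there that covered 25.8%, and replicate 2 called 34 that covered 48.6%, so the wide coverage was present in both and broader in replicate 2. The median score of the 20 sites was 2.62, and 17 of them were below the X median. The megabase from 12 to 13 Mb, which contains the region, held 16 of the 74 wide sites and had the lowest median score of any on X (2.99).

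The telomere end of X carried replicate 2 peaks of extreme score that replicate 1 lacked. Replicate 2 had 6 peaks between 6187 and 13938, 95 to 377 bp wide, with scores of 127.4, 1413.4, 1878.6, 47.3, 263.1 and 42.1 in order of position. Replicate 1 had no peak before 139865, which is also where the first shared site begins. The first 20 kb of 2L and of 3L held no peak in either replicate. On 3R the telomere end was set at the last peak, so the 20 kb there hold a peak by definition and are not comparable. They held 4 peaks in each replicate with scores from 1.38 to 5.06. In the rest of the X span replicate 2 had 6 more peaks above a score of 20, all 4 to 35 bp wide, of which the peak in MCM_5382 was matched. None of the 6 telomeric peaks entered the shared sites, and their sequence was not analysed here.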

How the data were processed

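MCM binding was profiled by chromatin immunoprecipitation and single-end sequencing (Illumina Genome Analyzer II, as the labels' protocols state). Per the file headers, positions are on FlyBase release 5.1, and the caller column names PeakSeq. The version and settings of the caller, the aligner, the control behind each list and the lowest score kept were not given in the sources used here. As deposited by the authors, the score is a number per peak with no unit, and served to describe and rank peaks. The authors called peaks in each sample, and a test on positions showed that the series list holds the joined overlaps of both. Sequencing depth is unknown.

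Peaks were placed by their centres, and those sharing at least 1 bp counted as found in both replicates. Distances run from edge to edge, windows are 200 kb from position 1, and arm lengths are the last peak end over the 3 lists. Dense windows hold at least 2 times the mean, and sites up to 10 kb apart form chains. Named regions followed a rule written with the design: the 5 densest windows, the dense zones, the 10 longest stretches, the 3 longest chains, the 10 highest-scoring and 5 widest sites, and the extreme score ratios. The X span and these lists were chosen with earlier results of these data known. The telomeric peaks, the wide region, the limit of 100 bp and the score steps were singled out after their values had been seen. A step is the number from 0.4 to 0.8 that puts most scores of an arm on its whole multiples, or on those multiples divided by a whole number up to 5.

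The test was an exact sign-flip over the 2 replicates, and everything else is description. Shares have exact 95% intervals (Clopper-Pearson), for counting error alone. Alternatives were each replicate alone, whole arms, the higher-scoring 50% of peaks, other overlaps, distances and windows, merging of peaks closer than 1 kb, peaks of at least 50 bp, covered bases and, added after the data were seen, other width limits and scores in steps. The code was tested on simulated data. Genes and sequence were not analysed here. The tools were SciPy 1.17.1, pandas 2.3.3 and NumPy 2.4.6 under Python 3.11.15, with figures by matplotlib 3.10.9.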

Additional observations from a re-analysis of the deposited data

How the results depend on the processing

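The 2 replicate lists hold more and narrower peaks than the shared list, so leaving out a replicate moved most values on X. The density ran from 77.6 to 83.8 per Mb, the ratio to the 3 arms from 1.08 to 1.21, the median distance from 3208 to 3390.5 bp and the share within 10 kb from 87.9% to 90.2%. The variance over mean ran from 5.89 to 6.68, the median width from 86 to 131 bp and the median score from 3.53 to 3.55. The X density was 23.2 per Mb for the higher-scoring 50% of peaks, 39.5 with peaks closer than 1 kb merged and 39.4 with peaks of at least 50 bp in both replicates. The ratio was 1.14 by covered bases, and it fell below 1, to 0.960, for the higher-scoring 50%. Asking for an overlap of 50% of the peak gave recoveries of 38.3% (replicate 1) and 59.1% (replicate 2), centres within 500 bp gave 68.2% and 74.2%, and peaks of at least 50 bp gave 69.0% and 80.5%. The median distance was 5835 bp over the whole arm and 9869 bp after merging. Within 5 kb 68.4% of sites had a neighbour, and within 20 kb 90.1%. The variance over mean was 3.79 in windows of 100 kb and 3.25 after merging. The median score was 3.76 for sites of 1 peak per replicate of at least 50 bp. With the limit between narrow and wider peaks at 200 bp, the narrow ratio was 1.09 in replicate 1 and 1.23 in replicate 2, and at 50 bp it was 1.59 in replicate 2. The wider ratio was 1.05 at 50 bp, 1.05 at 150 bp and 1.04 at 200 bp in replicate 1, and 1.07 at 50 bp and 1.11 at 200 bp in replicate 2, so the excess of narrow peaks stayed above that of wider ones at each limit run. In steps of each arm the score ratio of X was 1.09 and 1.07 in place of 0.995 and 0.978, and the median log2 score ratio of the replicates on X was -0.30 in place of 0.01. No paired analysis was possible because both replicates belong to 1 group. Depth is unknown, so no limit of detection can be given.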

Other observations

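Single megabases of X differed widely in their number of shared sites. The first megabase held 24 sites and 14 to 15 Mb held 25, while 13 to 14 Mb, just before the longest empty stretch, held 67. The sites of the first megabase had a median score of 4.70, against 3.55 at 14 to 15 Mb. At 4 to 5 Mb the median was also high, at 4.72, with 34 sites and 4 distances of more than 100 kb.

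Peaks that the other replicate did not call lay more often on the score steps, on X and on most of the other arms. In replicate 1, 37.9% of the unmatched X peaks lay on the X step or its fractions up to 5, against 21.6% of the matched ones. In replicate 2 the shares were 30.8% and 20.5%. On 2L, 3L and 3R the unmatched shares were 17.8%, 20.99% and 18.95% in replicate 1, against 11.7%, 15.1% and 12.5% of the matched peaks. In replicate 2 the unmatched shares were 12.89%, 18.5% and 17.5%, against 12.85%, 14.6% and 12.1%, so 2L showed nearly no difference there. Among the 10 highest-scoring sites, MCM_4677 came to 22 steps in replicate 1 and 23 in replicate 2, both whole, and the highest, MCM_5382, came to 49.5 and 49. Others of the 10 were off the step and its fractions. MCM_5511 was off in both replicates (33.51 and 33.145), and MCM_5359, MCM_5163, MCM_4870 and MCM_5135 were off in 1 replicate.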
